A study of Homo sapiens with 6 samples.

Results

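MYC, MAX and the MXD proteins form a network of transcription factors, and 10 of its genes were followed in the human leukaemia line Kasumi-1. The 10 were taken by name from the 29810 genes of the deposited table. They are the MYC family (MYC, MYCN and MYCL), their common partner MAX, the repressors MXD1, MXD4, MXI1 and MNT, the related partner MLX, and MGA. All 10 were found, and 9 passed the filter on low values, which MYCL did not. Kasumi-1 is an established line of immature myeloblasts from an acute myeloid leukaemia with the t(8;21) translocation. RNA was compared between 3 samples incubated for 48 h with 0.125 µM of I1, of which the labels give a code name and no structure, and 3 samples incubated for 48 h with control, whose agent the labels do not describe further. All 6 samples are of this 1 line, and the labels do not state whether replicates were separate cultures. The p-values below therefore describe the spread among these 6 libraries, which may be technical.

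The proteins of the network share a helix-loop-helix and leucine zipper region through which they pair. MYC and its relatives bind DNA only when paired with MAX, mostly at the E-box CACGTG, and raise the output of genes for ribosome production, nucleotide and amino acid metabolism and growth. MXD proteins and MNT pair with MAX in place of MYC and bring the SIN3 corepressor to the same sites. MLX pairs with the glucose sensor MondoA, the product of MLXIP, and with some MXD proteins, and MGA pairs with MAX inside the repressive complex PRC1.6. MYC is often highly expressed in acute myeloid leukaemia, and MXD1 is known to rise when myeloid cells mature.

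The E-box that the network binds also lies in the promoters of some of its own genes. RefSeq windows of 300 bases on GRCh38.p14, from 250 before to 50 after a gene's start, were found for all of the 10 genes except MYC, and CACGTG, which reads the same on both strands, was in those of MXD4, MNT and MLX. Over all 35116 windows of this length 7.26% held it, and over all 27305 genes with a window 8.78% did. Stretches of 30 bases are shown for these 3 genes because they are the members that carry the motif, which is in capitals.
MXD4, chr4:2262330-2262359, minus strand: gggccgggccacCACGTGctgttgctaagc
MNT, chr17:2401236-2401265, minus strand: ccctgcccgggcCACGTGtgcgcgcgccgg
MLX, chr17:42567038-42567067, plus strand: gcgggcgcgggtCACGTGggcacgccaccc
Of the 33 genes with a window that MYC is known to activate, 19 (57.6%) held the motif. The first match in the window is shown for ornithine decarboxylase (ODC1), the cell cycle kinase CDK4, lactate dehydrogenase A (LDHA) and the branched-chain aminotransferase BCAT1, and for ARRDC4, a target of MLX and MondoA.
ODC1, chr2:10448024-10448053, minus strand: ccgggccccgggCACGTGtgcggcgcgcct
CDK4, chr12:57752509-57752538, minus strand: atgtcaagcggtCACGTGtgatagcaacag
LDHA, chr11:18394366-18394395, plus strand: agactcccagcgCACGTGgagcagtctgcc
BCAT1, chr12:24949070-24949099, minus strand: aatccagcccgcCACGTGtactcgccgccg
ARRDC4, chr15:97960481-97960510, plus strand: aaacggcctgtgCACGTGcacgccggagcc
The motif began 238, 193 and 50 bases before the start in MXD4, MNT and MLX. A match is a stretch of letters and does not show that a factor was bound in these cells.

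FPKM, the unit of all levels here, counts fragments scaled to gene length and to library size. The library totals recovered from the values were 16390741, 16947805 and 16622286 fragments with I1 and 18204408, 17330696 and 17686526 in control. The 10 markers fixed for Kasumi-1 summed to 7207 to 8095 FPKM with I1 and 7854 to 10600 FPKM in control, with 9 of them, KIT, RUNX1T1 and POU4F1 included, above 1 FPKM in all libraries. Of the markers listed for other cells, 3 of 7 mature myeloid, 5 of 6 lymphoid, 5 of 7 erythroid and megakaryocytic and 4 of 6 fibroblast and epithelial genes were analysed here, and the sums cover these. The erythroid and megakaryocytic genes summed to 0.530 to 0.729 FPKM with I1 and 0.307 to 0.849 FPKM in control, with 5 of 5 below 1 FPKM and HBA1 at 0 in all libraries. Lymphoid genes summed to 4.37 to 5.42 FPKM with I1 and 4.34 to 5.60 FPKM in control, where CD8A was above 1 FPKM. Mature myeloid genes summed to 54.0 to 93.3 FPKM with I1 and 63.7 to 114 FPKM in control, where CSF3R was above 1 FPKM, and fibroblast and epithelial genes to 26.7 to 31.3 FPKM with I1 and 23.3 to 27.6 FPKM in control, where EPCAM was above 1 FPKM and KRT8 was at 0. The part of these markers in the results was not tested. Control replicate 1 stood apart on the first principal component, at -43.8 against -2.90 to 19.8 for the other libraries. The GC content of a gene went with its level in control replicate 1 over the other controls (Spearman's rho 0.677 across 11899 genes) and, inversely, with its log2 fold change of I1 over control (rho -0.763), genes not being independent replicates.

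MYC was by far the most abundant gene of the network in both groups. It had 393, 308 and 309 FPKM in I1 replicates 1 to 3 and 538, 337 and 297 FPKM in control replicates 1 to 3. It ranked between 62nd and 94th of the 29810 genes in every library and took 83.4%, 81.1% and 80.7% of the summed FPKM of the 10 genes with I1, against 87.8%, 82.5% and 80.2% in control. Control replicate 1 was highest, and the other 5 libraries, of both groups, overlapped. The gene (ENSG00000136997, plus strand of chromosome 8, 127735434 to 127741434 in hg38) has no overlapping neighbour in the table, and its levels rest on 15427 to 29366 reads per library.

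**Figure D1:**
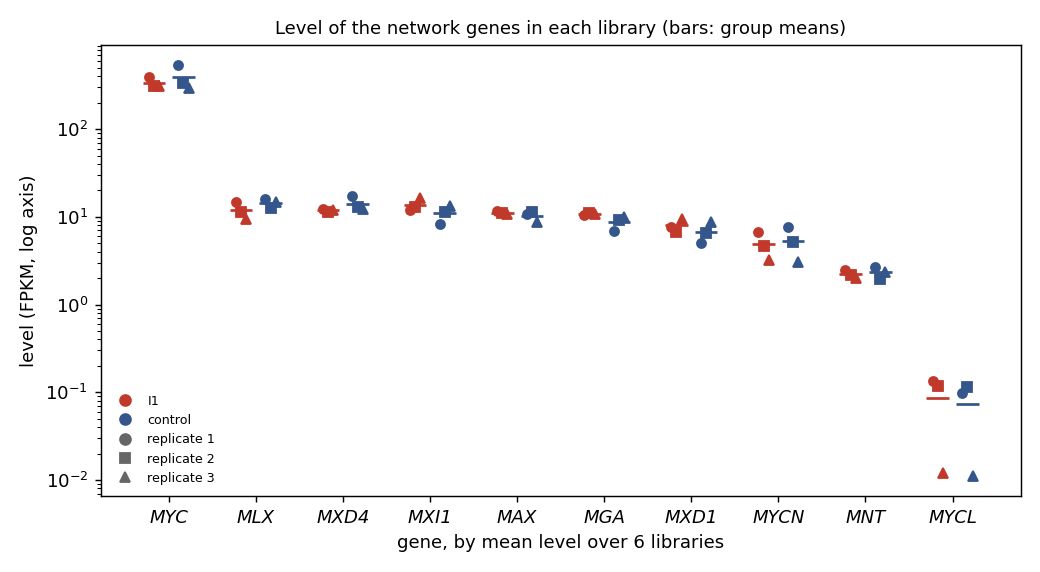
Level of each of the 10 network genes in each library, in FPKM on a log axis, ordered by the mean over 6 libraries, with I1 left of control. Points are libraries, shaped by replicate number, and bars are group means. MYC stands between 297 and 538 FPKM, 7 genes lie between 3.02 and 17.2 FPKM, MNT near 2 FPKM and MYCL near or below 0.1 FPKM.

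Behind MYC the genes were close to each other. The order of the means over 6 libraries was MLX at 13.2 FPKM, MXD4 at 13.01, MXI1 at 12.4, MAX at 10.7, MGA at 9.76, MXD1 at 7.38, MYCN at 5.12, MNT at 2.28 and MYCL at 0.0806 FPKM. Each of the neighbours from MLX to MYCN overlapped in range with the next, and MLX and MXD4, and MXD4 and MXI1, were each above the other in 3 of 6 libraries. MYC over MLX, MNT below MYCN and MYCL below MNT were separated in all 6 libraries without overlap. These levels are per length of all annotated exons of a gene, so a gene whose main transcript is shorter than that is set lower.

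No gene of the network passed the test between I1 and control. By limma on log2(FPKM + 1), with calls made at a Benjamini-Hochberg adjusted p under 0.05 over 11913 tested genes together with a doubling or halving on that scale (log2 fold change beyond 1 or -1), 0 of the 9 tested members were called and 0.0336% of all tested genes (4 genes) were. None of the 9 had an unadjusted p under 0.05, against 9.57% of all tested genes. The fold changes ran from -0.27 for MLX to 0.31 for MXI1, 4 above 0 and 5 below. With the replicate number as a block, 0 members passed over all genes and 2, MXI1 and MGA, had an unadjusted p under 0.05, where 27.1% of all tested genes did. Over all alternatives the adjusted p of the members by limma ran from 0.148 for MXI1 with the block to 0.997 for MNT.

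MYC itself averaged 337 ± 48.9 FPKM with I1 and 391 ± 129 FPKM in control (SD, n = 3 each). Its log2 fold change was -0.18 with a 95% interval of -0.71 to 0.36 (limma adjusted p = 0.701), and with the block the interval was -0.43 to 0.08 (adjusted p = 0.308). The value was -0.06 after a correction for GC content, 0.08 without control replicate 1 and -0.35 without control replicate 3. PVT1, a noncoding gene beside MYC, had 2.52, 2.11 and 2.37 FPKM with I1 and 2.66, 2.29 and 2.26 FPKM in control, which overlap (log2 fold change -0.03, adjusted p = 0.913). CASC11, another noncoding gene of the locus, had 0 to 2 reads in every library, under the floor of 3 reads.

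MYCN, the family member best known from nervous tissue and neuroblastoma, was present at a low level. It had 6.80, 4.69 and 3.26 FPKM in I1 replicates 1 to 3 and 7.71, 5.21 and 3.02 FPKM in control replicates 1 to 3. Replicate 1 was highest and replicate 3 lowest in both groups, and the groups overlapped. The log2 fold change was -0.07 (95% interval -0.78 to 0.65, adjusted p = 0.921 by limma), -0.01 after the GC correction, 0.20 without control replicate 1, 0.15 without I1 replicate 3 and -0.36 without control replicate 3. The antisense gene MYCNOS overlaps MYCN on chromosome 2 and had 5, 9 and 2 reads with I1 and 16, 8 and 6 in control, against 141 to 365 reads of MYCN. MYCL was close to absent, with 11, 10 and 1 reads in I1 replicates 1 to 3 and 9, 10 and 1 reads in control replicates 1 to 3. Both replicate 3 libraries fell below the floor of 3 reads, which is 0.0326 to 0.0362 FPKM for this gene and covers counting error only. In bulk RNA such a level may come from few cells or from little RNA per cell, and these cannot be told apart.

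MAX, without which MYC does not bind DNA, varied least among the 10 genes, with a coefficient of variation of 9.61% over 6 libraries. It had 11.6, 10.99 and 10.7 FPKM with I1 and 10.7, 11.4 and 8.70 FPKM in control. Control replicate 3 was lowest, and the other 5 libraries, of both groups, lay between 10.7 and 11.6 FPKM. FNTB, on the other strand at the same locus, had 0.921 FPKM with I1 and 1.01 FPKM in control. The log2 fold change of MAX was 0.11 (95% interval -0.19 to 0.41, limma adjusted p = 0.662), 0.01 without control replicate 3 and 0.19 without control replicate 2.

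Of the 4 repressors, MXI1 and MXD1 had fold changes above 0 and MXD4 and MNT below 0. MXI1 had 12.02, 12.9 and 16.4 FPKM in I1 replicates 1 to 3 and 8.23, 11.5 and 13.3 FPKM in control replicates 1 to 3. In all 3 pairs of equal replicate number the I1 library was the higher, a trait not counted over all tested genes, while the groups overlapped. Its log2 fold change was 0.31 (95% interval -0.13 to 0.75, adjusted p = 0.486 by limma, and 0.148 with the block). It was 0.13 without control replicate 1, 0.19 without I1 replicate 3 and 0.22 after the GC correction. MXD1 had 7.76, 6.74 and 9.51 FPKM with I1 and 5.07, 6.47 and 8.73 FPKM in control. SNRNP27, which overlaps it on the same strand, had 5.135 FPKM with I1 and 4.31 FPKM in control. MXD1 too was higher with I1 in 3 of 3 pairs with overlapping groups (log2 fold change 0.23, limma adjusted p = 0.570, and 0.262 with the block). The value was 0.09 after the GC correction, 0.07 without control replicate 1, 0.11 without I1 replicate 3, 0.41 without control replicate 3 and -0.03 with array weights. MXD4 had 12.2, 11.4 and 11.9 FPKM with I1 and 17.2, 12.9 and 12.3 FPKM in control. All I1 libraries were below all control libraries, narrowly against control replicates 2 and 3. Its log2 fold change was -0.23 (95% interval -0.56 to 0.11, adjusted p = 0.495) and it was -0.07 after the GC correction and -0.09 without control replicate 1. MNT, which pairs with MAX in resting and growing cells alike, had 2.45, 2.20 and 1.99 FPKM with I1 and 2.71, 1.96 and 2.35 FPKM in control, overlapping (log2 fold change -0.05, adjusted p = 0.856 by limma, and 0.10 after the GC correction). MXD3, a further repressor of the family that was not among the 10, had 3.69, 4.58 and 3.41 FPKM with I1 and 5.21, 4.11 and 3.65 FPKM in control (log2 fold change -0.12, adjusted p = 0.708 by limma, and 0.05 after the GC correction). It overlaps PRELID1 on the other strand, which had 26.9 FPKM with I1 and 30.7 FPKM in control, and the use of strand in counting is unknown here.

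**Figure D2:**
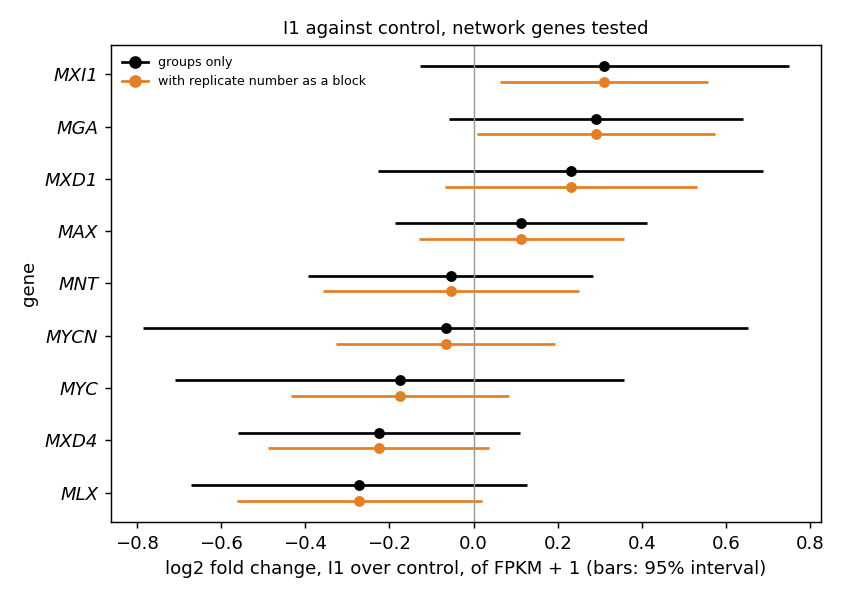
Log2 fold change of I1 over control, on the scale of log2(FPKM + 1), for the 9 network genes tested, with 95% intervals from limma without (black) and with (orange) the replicate number as a block. All 9 intervals without the block cross 0, and with it only those of MXI1 (0.06 to 0.56) and MGA (0.01 to 0.57) do not, before adjustment over all genes.

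MLX and MGA, which link the network to glucose sensing and to PRC1.6, had fold changes of opposite sign, neither past the test. MLX had 14.9, 11.4 and 9.58 FPKM with I1 and 16.1, 12.6 and 14.9 FPKM in control. PSMC3IP, on the other strand at the same locus, had 4.06 FPKM with I1 and 3.94 FPKM in control. MLX was lower with I1 in 3 of 3 pairs and the groups overlapped (log2 fold change -0.27, 95% interval -0.67 to 0.13, limma adjusted p = 0.493). It was -0.43 without I1 replicate 1 and -0.13 without I1 replicate 3. Its partner MondoA (MLXIP) had 19.2, 18.7 and 20.8 FPKM with I1 and 21.7, 18.2 and 22.5 FPKM in control (log2 fold change -0.08, adjusted p = 0.732, and 0.04 after the GC correction). MLXIPL, a relative of MLXIP, was not analysed here. MGA had 10.5, 11.2 and 10.7 FPKM with I1 and 6.82, 9.33 and 10.04 FPKM in control. All I1 libraries were above all control libraries, with a narrow gap to control replicate 3. Its log2 fold change was 0.29 (95% interval -0.06 to 0.64, adjusted p = 0.467 by limma), and it was 0.10 after the GC correction and 0.14 without control replicate 1. MGA and MXD4 were the 2 of 9 tested members whose groups did not overlap, which held for 21.6% of all tested genes. MGA has 42.7% GC and MXD4 61.0%, the lowest and the highest of the 9 tested members.

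The RNA level of MYC was compared with those of its partner and its competitors within each library, where the library total cancels. These are ratios of RNA and do not give the balance of the proteins, which were not measured here. MYC exceeded MAX 34.0-fold, 28.0-fold and 28.8-fold with I1 and 50.5-fold, 29.7-fold and 34.2-fold in control. The log2 ratio averaged 4.91 ± 0.15 with I1 and 5.21 ± 0.40 in control (SD, n = 3 each), a difference of -0.30 (exact permutation test, 2-sided p = 0.20, where 3 against 3 libraries cannot go below 0.10). It was lower with I1 in 3 of 3 pairs (exact sign-flip permutation p = 0.25, the smallest that 3 pairs allow) and the difference was -0.08 without control replicate 1 and -0.20 after the GC correction. MYC exceeded the sum of MXD1, MXD4, MXI1 and MNT 11.4-fold, 9.27-fold and 7.78-fold in I1 replicates 1 to 3 and 16.2-fold, 10.3-fold and 8.11-fold in control replicates 1 to 3. The log2 ratio differed by -0.24 (exact permutation test, 2-sided p = 0.60), by 0.04 without control replicate 1 and by -0.14 after the GC correction. This ratio too was lower with I1 in 3 of 3 pairs (exact sign-flip permutation p = 0.25, the smallest that 3 pairs allow). Replicate 1 had the highest ratio and replicate 3 the lowest in both groups.

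**Figure D3:**
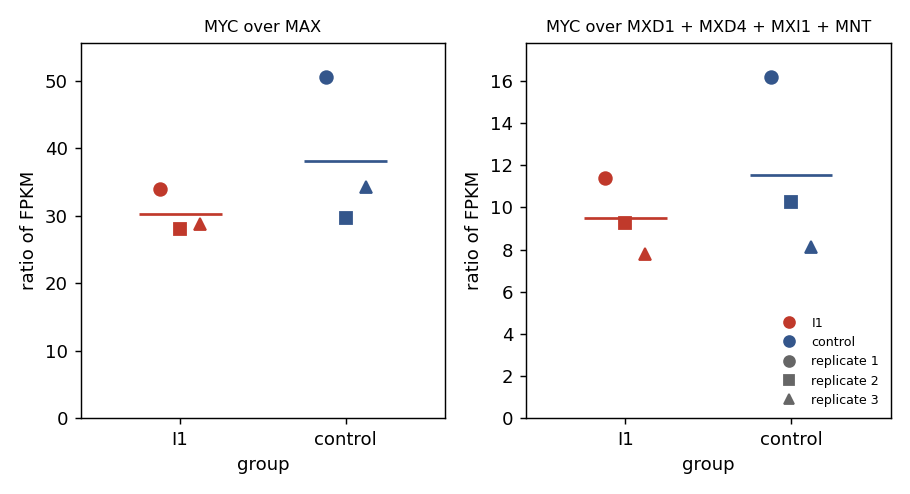
Ratio of the FPKM of MYC to that of MAX (left) and to the summed FPKM of MXD1, MXD4, MXI1 and MNT (right) in each library, I1 left of control, with axes from 0 and bars at group means. Control replicate 1 is highest in both panels, at 50.5 and 16.2, and the other control libraries lie between 29.7 and 34.2 and between 8.11 and 10.3, within or near the I1 values.

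Members were also compared between replicate numbers. The test of the replicate number, from the same limma fit with group and number, was added after the values were seen. It passed for 1 of 9 members, MYCN (adjusted p = 0.0395), and for 2.14% of all tested genes. MYC, MXI1 and MXD1 had unadjusted p of 0.00641, 0.0146 and 0.0378 and did not pass after adjustment (0.0944, 0.124 and 0.172). An unadjusted p under 0.05 was met by these 3 and MYCN, and by 26.2% of all tested genes. MYCN was not called without control replicate 2 (adjusted p = 0.111) or I1 replicate 2 (0.0900), where 0.453% and 0.848% of all tested genes were. With a library left out its adjusted p ranged from 0.00397, without I1 replicate 3, to 0.111. It was 0.0271 with a GC correction, where MYCN was again the 1 member called and 5.35% of all tested genes were. MYC passed without I1 replicate 1, I1 replicate 3 or control replicate 3 (0.0129, 0.00167 and 0.0263), where 29.6%, 11.5% and 9.58% of all tested genes did. MXI1 and MXD1 passed without I1 replicate 1 (0.0210 and 0.0177), where 29.6% of all tested genes did. MYC and MYCN were highest in replicate 1 of each group. MXI1 and MXD1 were highest in replicate 3 of each group, and MXI1 was lowest in replicate 1 of each group. What the numbers stand for is not given in the labels.

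**Figure D4:**
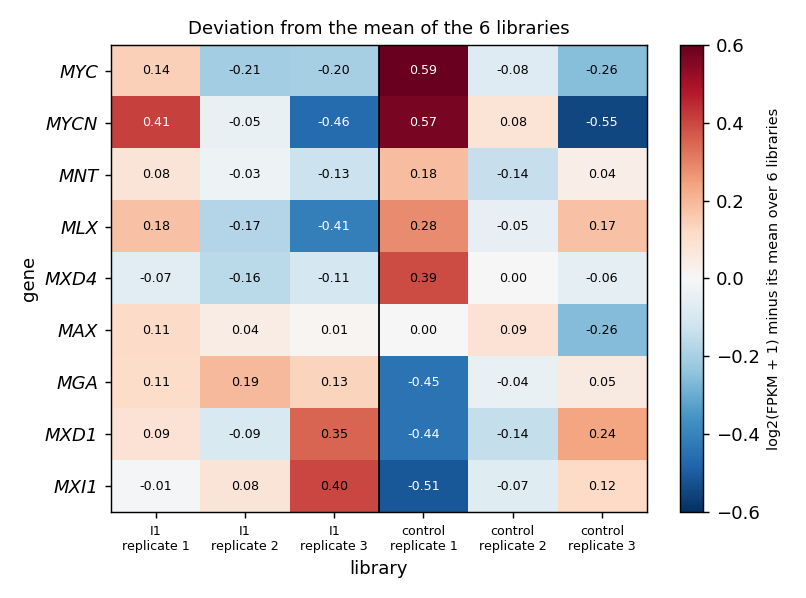
Deviation of log2(FPKM + 1) from its mean over the 6 libraries for the 9 network genes tested, in rows, and the libraries in columns, I1 left of control, red above and blue below the mean. MYCN is at 0.41 and 0.57 in the replicate 1 libraries and at -0.46 and -0.55 in the replicate 3 libraries of I1 and control, and MXI1 and MXD1 are lowest in control replicate 1, at -0.51 and -0.44.

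Among 6927 other genes with a mean of at least 5 FPKM, those whose pattern over the 6 libraries lay nearest to that of MYC were AC093323.1, DCAKD, SLC43A1, SRPX and SLC39A3. Likeness was the root mean square difference of log2(FPKM + 1) centred on its mean, which was 0.04 for AC093323.1 and 0.06 for the other 4, against a median of 0.35 over all 6927 genes. AC093323.1 had 10.6, 8.48 and 8.09 FPKM with I1 and 15.4, 9.64 and 7.97 FPKM in control. SLC43A1, an amino acid transporter, had 30.6, 21.4 and 21.2 FPKM with I1 and 40.1, 25.2 and 22.4 FPKM in control. All 5 were highest in control replicate 1 and next highest in I1 replicate 1, as MYC was. No test was made of this likeness.

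Genes that act with the network or answer to it were taken as lists, which are described by counts beside those of all 11913 tested genes, of which 6489 were above 0 and 5424 below, with a median log2 fold change of 0.03. No member of any list passed the adjusted p. Of 38 tested genes activated by MYC, 20 were above 0 and 18 below with a median of 0.01, and 1 had an unadjusted p under 0.05, against 9.57% of all tested genes. That gene, BCAT1, had 25.4, 21.1 and 24.0 FPKM with I1 and 11.6, 17.1 and 20.1 FPKM in control (log2 fold change 0.53, adjusted p = 0.467 by limma, and 0.27 after the GC correction). Its groups did not overlap, which held for 21.6% of all tested genes. AMD1, a polyamine enzyme, had the next smallest p, with a log2 fold change of 0.32, and -0.01 after the GC correction. The most abundant were PTMA, the precursor of a thymosin, at 582 ± 82.9 FPKM with I1 and 469 ± 111 FPKM in control, and the nucleolar protein NPM1 at 433 ± 23.2 FPKM with I1 and 402 ± 34.5 FPKM in control (SD, n = 3 each). Activated genes with CACGTG in the promoter window had a median of 0.02 over 19 genes, and those without it 0.06 over 12. The translation factor EIF4A1 and PPAN did not pass the filter on low values. Of 10 tested genes repressed by MYC, 5 were above 0 and 5 below with a median of 0.01. The cell cycle inhibitor CDKN1B was the most abundant, at 56.6 ± 7.91 FPKM with I1 and 51.7 ± 4.57 FPKM in control, followed by the iron store FTH1 at 33.5 ± 9.26 FPKM with I1 and 34.7 ± 5.45 FPKM in control (SD, n = 3 each). CCNG2 and BTG1, which slow growth, had the smallest p (log2 fold changes 0.33 and 0.24, adjusted p = 0.512 and 0.518 by limma, and 0.15 and -0.03 after the GC correction).

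Partners of MYC were also spread around 0. Of 20 cofactors 9 were above 0 and 11 below with a median of -0.01. CDCA7, which binds MYC, had 50.9, 49.0 and 45.5 FPKM with I1 and 35.2, 45.5 and 35.5 FPKM in control, with a narrow gap between the groups (log2 fold change 0.33, adjusted p = 0.467 by limma, and 0.18 after the GC correction). It was the 1 cofactor of 20 with an unadjusted p under 0.05, against 9.57% of all tested genes. SUPT5H, a subunit of an elongation factor, had 20.8, 20.0 and 20.3 FPKM with I1 and 26.6, 22.3 and 23.1 FPKM in control (log2 fold change -0.23, the same adjusted p, and -0.10 after the GC correction). SMARCB1, a subunit of chromatin remodellers, and the helicase RUVBL2 were the most abundant cofactors, at 57.9 ± 4.001 and 56.2 ± 4.68 FPKM with I1 and 67.0 ± 4.03 and 68.5 ± 10.1 FPKM in control (SD, n = 3 each). Of 19 genes of MYC protein turnover 14 were above 0 and 5 below with a median of 0.12, and -0.02 after the GC correction, and 3 of them, FBXL14, STUB1 and FBXO28, had an unadjusted p under 0.05, against 9.57% of all tested genes. The ubiquitin ligase genes FBXL14 and STUB1 had 14.8 ± 0.427 and 7.20 ± 0.694 FPKM with I1 and 19.4 ± 2.67 and 9.20 ± 0.326 FPKM in control, each without overlap (log2 fold changes -0.36 and -0.32, adjusted p = 0.467 by limma, and -0.25 and -0.13 after the GC correction). FBXO28 went the other way, at 8.38 FPKM with I1 and 5.91 FPKM in control, also without overlap. Its log2 fold change was 0.47 (adjusted p = 0.467 by limma), and 0.25 after the GC correction. A lack of overlap between groups held for 21.6% of all tested genes. HUWE1, a ligase, and the kinase AURKA were the most abundant, at 57.2 and 25.3 FPKM with I1 and 56.1 and 24.96 FPKM in control. Of 15 regulators of MYC transcription 11 were above 0 and 4 below with a median of 0.08, and 0.03 after the GC correction. In this list 0 had an unadjusted p under 0.05, against 9.57% of all tested genes. CNBP and HNRNPK led it in level, at 175 and 126 FPKM with I1 and 182 and 125 FPKM in control, and FUBP1 and the bromodomain reader BRD3 had the smallest p (log2 fold changes 0.40 and 0.18, adjusted p = 0.468 and 0.512 by limma, and 0.22 and 0.28 after the GC correction).

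**Figure D5:**
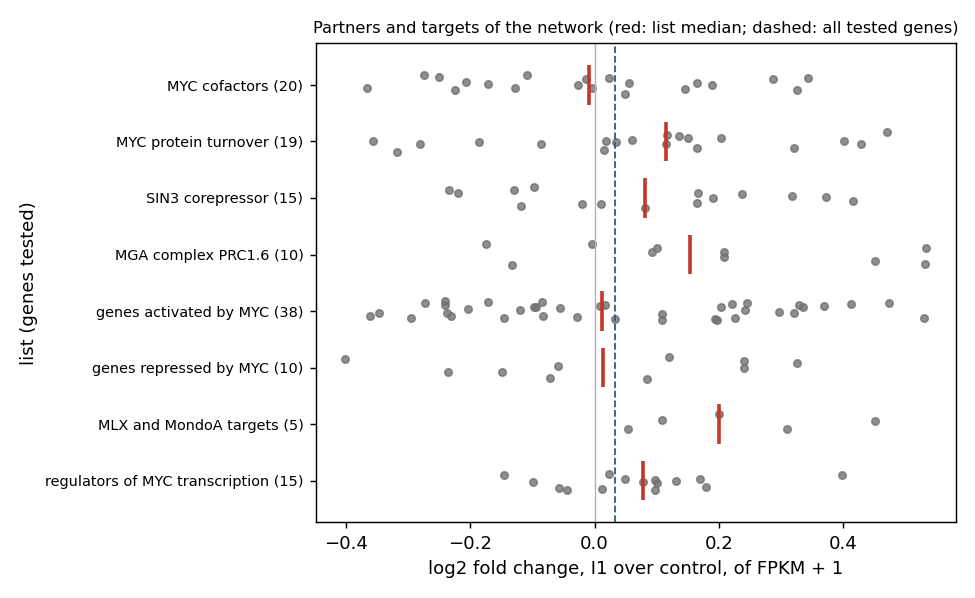
Log2 fold change of I1 over control, on the scale of log2(FPKM + 1), of each tested gene (grey points) in the 8 lists with at least 5 tested genes, with the list median in red and the median of all tested genes, 0.03, as a dashed line. The points of most lists lie on both sides of 0 within about 0.5, and all 5 targets of MLX and MondoA lie above 0. Values are without the GC correction.

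Corepressors of the MXD proteins and of MGA had medians of 0.08 over 15 genes of the SIN3 complex and 0.15 over 10 of PRC1.6, which were 0.00 and 0.05 after the GC correction. In SIN3, HDAC1 and RBBP4 led in level, at 42.1 and 36.9 FPKM with I1 and 45.7 and 32.8 FPKM in control. ARID4A had 7.80 ± 0.728 FPKM with I1 and 5.69 ± 1.44 FPKM in control, and BRMS1 had 12.4 ± 0.674 FPKM with I1 and 14.6 ± 0.858 FPKM in control (SD, n = 3 each), with log2 fold changes of 0.42 and -0.22 and an adjusted p of 0.467 by limma for both. After the GC correction they were 0.11 and -0.07. In PRC1.6 the related subunits RYBP and YAF2, 2 of 10 genes, had an unadjusted p under 0.05, against 9.57% of all tested genes, and in SIN3 0 of 15 had. RYBP had 6.79, 7.82 and 8.69 FPKM with I1 and 3.56, 5.76 and 6.15 FPKM in control, and YAF2 had 1.66, 2.13 and 1.65 FPKM with I1 and 0.699, 1.42 and 1.101 FPKM in control. Neither gene overlapped between groups, a trait of 21.6% of all tested genes, and control replicate 1 was lowest for both (log2 fold changes 0.53 and 0.45, adjusted p = 0.467 by limma, and 0.28 and 0.19 after the GC correction). TFDP1 and CBX1 were the most abundant of PRC1.6, at 64.8 and 45.0 FPKM with I1 and 65.3 and 42.4 FPKM in control. All 5 tested targets of MLX and MondoA were above 0 with a median of 0.20. After the GC correction the median was 0.14 and not all stayed above 0, with HBP1 at -0.08. TXNIP, which limits glucose uptake, had 157, 84.2 and 95.3 FPKM with I1 and 129, 81.5 and 78.5 FPKM in control, higher with I1 in 3 of 3 pairs with overlapping groups (log2 fold change 0.20, adjusted p = 0.708 by limma, and 0.08 after the GC correction). ARRDC3 and ARRDC4, arrestin-like relatives of TXNIP, had 7.52 ± 0.931 and 6.37 ± 0.991 FPKM with I1 and 5.34 ± 1.59 and 4.92 ± 0.399 FPKM in control (SD, n = 3 each; log2 fold changes 0.45 and 0.31, adjusted p = 0.467 by limma, and 0.20 and 0.14 after the GC correction). TOB2, a relative of BTG1, had 29.9 FPKM with I1 and 28.8 FPKM in control.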

How the data were processed

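RNA of 6 Kasumi-1 samples, 3 with I1 and 3 with control, was made into libraries with a stranded kit for polyadenylated RNA, per the labels' protocols. The submitters' processing notes name hg38 and the tools HISAT2, HTSeq, Cufflinks and Trimmomatic, and neither versions, roles, annotation nor strand setting is given in the sources used. FPKM values were deposited by the authors as 1 table of 29810 genes, and each of its 6 columns bears the title of 1 sample, although other cell lines appear in the name of the table. Columns not used numbered 0.

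Names, coordinates, exon lengths and GC contents came from GENCODE release 29 on hg38, which matched 29703 genes. With these lengths the values were whole reads, within 0.05 reads in all libraries, for 95.9% of genes. This gave library totals; 1 read in a kilobase was worth 0.0549 to 0.0610 FPKM. Floors of 3 reads cover counting error only. The intervals of the fold changes come from the limma fits and rest on the spread among the libraries.

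The 2 groups were tested with limma 3.58.1 (trend option, R 4.3.3, tables by Python 3.11.15) on log2(FPKM + 1). The filter kept 11913 genes that reached 1 FPKM in 3 or more of the 6 libraries. The added 1 shrinks the fold changes of low genes. The GC correction removed from each library a smooth trend with GC content. The trend was fitted to each gene's deviation from its mean log2 value over the libraries. A group difference that follows GC content can thus be removed as well. The fit was also run on simulated counts, which held no trend with GC content and no difference between replicate numbers. That run does not show how the fit behaves where these are present. Once group means were removed, the I1 and control libraries numbered 1, 2 and 3 correlated at 0.476, 0.457 and 0.412, and libraries of unequal number at values below 0. Deviations in a group then sum to 0, so the values below 0 add no separate support. Equal numbers were treated as pairs on the ground of these same data, as the labels state no pairs. How many of all tested genes had 3 of 3 pairs in the same direction was not counted.

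The members and lists were chosen with earlier results of these data known. Named are all members, MXD3, MLXIP, PVT1, the 5 genes nearest to MYC, and per list up to 2 genes with the highest mean and up to 2 with the smallest unadjusted p; any others were chosen after their values were seen. Other pseudocounts (0.1 and 0.5), filters, scalings, array weights, the block, the GC correction and leaving out each library were tried.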

Additional observations from a re-analysis of the deposited data

How the results depend on the processing

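Between I1 and control, no member was called under any of the alternatives run. The number of genes called between I1 and control, 4, was 0 with a pseudocount of 0.1 or 0.5, no filter, a mean of at least 5 FPKM or TPM rescaling, 1 with the GC correction, 2 with quantile normalization or with the replicate block and GC correction, 6 with the replicate block, 14 with array weights, and 0 to 2 with a library left out; the counts of 0 by limma came with 479 to 1726 genes at an unadjusted p under 0.05. The cause of these differences was not tested. The replicate block changed no member's call. Fold changes that turned sign were those of MYC with array weights (0.0933) and without a library (-0.3473 to 0.0783, above 0 without control replicate 1), MYCN with array weights (0.34) and without a library (-0.3572 to 0.2001, above 0 without control replicate 1 or I1 replicate 3), MXD1 with array weights (-0.0345), MNT with the GC correction, with or without the block (0.1009), and without a library (-0.1375 to 0.0239, above 0 without control replicate 1), MXD3 with the GC correction, with or without the block (0.0548), and array weights (0.0278), MLXIP with the GC correction, with or without the block (0.0379), and PVT1 with TPM rescaling (0.0088), array weights (0.0153) and without a library (-0.0728 to 0.0215, above 0 without control replicate 1 or I1 replicate 2). Among list genes these were AMD1 (-0.0109) and BTG1 (-0.0252) with the GC correction, with or without the block, and CCNG2 with array weights (-0.0043). The log2 ratio of MYC to the summed MXD and MNT genes ranged from -0.4599 to 0.0381 with a library left out and that of MYC to MAX from -0.4612 to -0.0789. Between replicate numbers 255 genes were called, 637 with the GC correction, 384 with quantile normalization and 54 (without control replicate 2) to 3528 (without I1 replicate 1) with a library left out, where 0 to 4 members were called instead of 1. MXD4, MLX, MGA, MXI1 and MAX kept their direction under all 17 alternatives.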

Other observations

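Several targets of the network differed between replicate numbers and not between groups by limma's adjusted p. These genes were chosen after their values were seen. Of the 38 tested genes activated by MYC, 4 differed between replicate numbers at an adjusted p under 0.05 by limma (10.5%, against 2.14% of all tested genes), as did 2 of 10 genes repressed by MYC, 1 of 5 targets of MLX and MondoA and 1 of 20 cofactors. The count was 0 of 19 for MYC protein turnover, 0 of 15 for SIN3, 0 of 10 for PRC1.6 and 0 of 15 for regulators of MYC transcription. The share of all tested genes was 5.35% with the GC correction and ran from 0.453% to 29.6% with a library left out. Lactate dehydrogenase A (LDHA) had 101, 120 and 177 FPKM in I1 replicates 1 to 3 and 97.3, 126 and 196 FPKM in control replicates 1 to 3 (adjusted p = 0.0198). Hexokinase 2 (HK2), an early enzyme of glycolysis, had 44.9, 40.5 and 67.5 FPKM with I1 and 40.4, 39.6 and 71.5 FPKM in control (adjusted p = 0.0300 by limma). Replicate 3 was highest for both genes in both groups, and so it was for NDRG1, a gene induced by hypoxia, with 5.52, 3.17 and 8.12 FPKM with I1 and 7.41, 4.34 and 11.7 FPKM in control, and for the cell cycle inhibitor CDKN1A, with 2.42, 1.64 and 4.89 FPKM with I1 and 2.11, 1.65 and 4.43 FPKM in control.

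The others were highest or lowest in replicate 1. The mitochondrial serine enzyme SHMT2 had 44.9, 29.1 and 28.1 FPKM with I1 and 65.8, 32.6 and 36.9 FPKM in control, and BIN1, which binds MYC, had 8.19, 4.01 and 2.94 FPKM with I1 and 10.6, 5.23 and 4.37 FPKM in control. TXNIP was highest in replicate 1 of each group as well. The transferrin receptor TFRC was lowest there, with 79.1, 112 and 149 FPKM with I1 and 44.2, 102 and 108 FPKM in control. MYC and MYCN were highest in the same libraries, and no relation between these genes was tested.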
